A study of Mus musculus with 6 samples.

Results

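The genes described here carry 1-carbon units on folate, make and recycle S-adenosylmethionine, make serine, cleave glycine and threonine, and make polyamines. They form a list of 38 mouse genes in 6 roles: 15 of the folate cycle, 4 of glycine cleavage, 2 of threonine use, 3 of serine synthesis, 10 of the S-adenosylmethionine cycle and transsulfuration, and 4 of polyamine synthesis. The list names genes by pathway and applies no threshold to measured values, but it was drawn up with earlier results of these data known. A gene was read on probe sets (groups of short probes on the array) that the platform annotation assigns to that gene alone. By this rule 32 of the 38 genes had a value, on 62 of the array's 45101 probe sets, and 29 were bright enough to test.

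Affymetrix arrays read the RNA of mouse embryonic stem cells, 3 arrays for each of 2 genotypes. The first genotype was Gsk-3a-/-; Gsk-3b-/- (DKO below), which lacks both genes of glycogen synthase kinase-3. The other was wild-type cells. Both were cultured feeder-free on gelatin, in high glucose medium containing 15% serum, non-essential amino acids, pyruvate, 2 mM glutamine, 2-mercaptoethanol and 1000 units/ml of leukaemia inhibitory factor, and media of this kind supply serine, glycine, methionine and folate. The labels do not say whether the 3 samples of a genotype were separate cultures, or how many clones they represent, and the spread behind every p-value, being that among these samples alone, may be technical.

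Folate carries 1-carbon units, mostly from serine, to purines, to thymidylate and to homocysteine, which becomes methionine again. Methionine is activated to S-adenosylmethionine, the methyl donor for DNA, histones and many other substrates, and what is left after methyl transfer is homocysteine, which is either remethylated or drawn off to cysteine by transsulfuration. Mouse embryonic stem cells are known for depending on threonine, which threonine dehydrogenase (Tdh) turns into glycine and acetyl-CoA, and for being sensitive to methionine supply.

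Most of the list showed no change that passed the test, and 2 genes rose. Cbs, the first enzyme of transsulfuration, was 4.33-fold higher in DKO (95% interval 2.39 to 7.85). Aldh1l1, the cytosolic enzyme that oxidises 10-formyltetrahydrofolate and so takes 1-carbon units out of the folate pool, was 3.58-fold higher (95% interval 2.47 to 5.20). Of the 29 tested members 2 rose (6.90%), 0 fell and 27 did not pass at an adjusted p of 0.05 (limma, Benjamini-Hochberg over 20841 probe sets), and 3 members (10.3%) had an unadjusted p under 0.05, as did 14.7% of all tested genes. The background was 4.13% of 10496 tested genes in either direction, and 1.64% passed as higher in DKO, and 2 genes are too few to set the list apart from that. The median log2 difference, DKO minus wild-type, was 0.13 over the members and -0.0025 over all tested genes.

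The promoters of the 2 genes that rose are shown because the data bear on their transcript levels. They are the bases just before each gene's start, from RefSeq on GRCm38.p6, cut to bases outside the annotated gene. Aldh1l1 lies at chr6:90550543-90550767 on the plus strand (225 bases) and Cbs at chr17:31637234-31637455 on the minus strand (222 bases), both printed 5′ to 3′ on the gene's strand, and capitals mark an E-box, CACGTG.
Aldh1l1: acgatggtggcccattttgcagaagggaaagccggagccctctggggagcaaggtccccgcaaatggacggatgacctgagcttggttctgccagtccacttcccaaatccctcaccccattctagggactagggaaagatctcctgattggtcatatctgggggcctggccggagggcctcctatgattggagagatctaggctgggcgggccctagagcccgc
Cbs: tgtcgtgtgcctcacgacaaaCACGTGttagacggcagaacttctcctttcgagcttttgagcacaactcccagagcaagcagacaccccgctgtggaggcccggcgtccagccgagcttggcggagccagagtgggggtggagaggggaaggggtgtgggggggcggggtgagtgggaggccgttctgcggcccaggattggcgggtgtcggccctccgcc
The stretch of Cbs had 66.2% G and C, 16 CG pairs and 1 E-box, the motif bound by Myc and Max. That of Aldh1l1 had 59.6% G and C, 7 CG pairs and none of the 3 motifs searched on both strands. These were CACGTG, TGATGCAAT (the C/EBP-ATF response element, which Atf4 binds) and CTTTGAT (a Tcf/Lef motif), of which the last TGAT is also the start of the second motif. The search covered the 300-base window around each start, and 30 of the 38 members had 39 such promoters in the table. CACGTG stood in 4 of these 39 (10.3%; Cbs, Gcat, Sms and Tyms) and in 7.15% of all 32851 promoters. TGATGCAAT stood in 0 of the 39 and in 0.192% of all, and CTTTGAT in 0 of the 39 and in 3.73% of all. A match of letters is a description and not a binding site.

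Values below are log2 intensities, and a level is comparable between arrays but not between genes. Array medians were intensities of 10 to 11 and upper quartiles 130 to 140. Both arrays numbered 3 carried strong spike-in signal: the mean log2 level of 18 spike-in probe sets was 9.84 for DKO and 10.22 for wild-type there, and 1.68 to 1.83 on the other 4 arrays. Same-numbered arrays deviated together (r of 0.427, 0.354 and 0.595 over tested probe sets), so the replicate number was taken to pair the samples. The labels do not say what that number stands for. The main fit does not use the pairs, and the fit with the replicate block does. Of the targeted genes, Gsk3a read 7.18, 7.08 and 6.04 on the DKO arrays and 8.65, 7.90 and 7.90 on the wild-type arrays, with no overlap (adjusted p = 0.0942, limma; 0.00646 with the replicate block). Gsk3b differed by -0.21 on its brightest probe set (adjusted p = 0.832, limma), and where its probes lie relative to the deletion is not known here. All 10 tested embryonic stem cell markers, Pou5f1, Sox2 and Nanog among them, were bright, with a summed intensity of 26411 to 28754 in DKO and 27532 to 29154 in wild-type, and 0 of 10 passed.

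Cbs (NCBI gene 12411, chromosome 17) condenses homocysteine with serine to cystathionine. On its brighter probe set it read 9.10, 8.86 and 8.08 on DKO arrays 1, 2 and 3 and 7.20, 5.98 and 6.51 on the wild-type arrays. The lowest DKO array lay above the highest wild-type array. The means were 8.68 ± 0.53 and 6.56 ± 0.61 (SD, n = 3 each), a difference of 2.12 (SE 0.38; limma, adjusted p = 0.0184), and the same-numbered pairs differed by 1.90, 2.88 and 1.57. A second Cbs probe set read 6.32, 6.04 and 5.98 in DKO and 4.64, 4.39 and 4.75 in wild-type, again without overlap, and differed by 1.52 (SE 0.24; limma, adjusted p = 0.0094), or 0.0579 without wild-type replicate 2. The call on the brighter probe set was lost without DKO replicate 1 (adjusted p = 0.126), DKO replicate 2 (0.0866) or wild-type replicate 2 (0.0749, all by limma), while the difference stayed between 1.82 and 2.43 in the 6 fits that each leave out an array. It was also lost when no filter on dim probe sets was set (adjusted p = 0.170, limma).

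Cth, which cleaves the product of Cbs to cysteine, read 9.37, 9.59 and 10.31 in DKO and 8.81, 8.57 and 9.94 in wild-type. Each DKO array was above the wild-type array of its number, but the genotypes overlapped, since wild-type replicate 3 was above DKO replicates 1 and 2. The difference was 0.65 (95% interval -0.26 to 1.56; limma, adjusted p = 0.603), so a 2-fold rise and a small fall are both inside the interval. Whether Cbs rose by more than Cth was not tested.

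Aldh1l1 (NCBI gene 107747, chromosome 6) read 6.34, 5.86 and 6.21 in DKO and 4.32, 4.17 and 4.39 in wild-type. The wild-type arrays lay just above the log2 level of 4 used as the lower limit for testing, and all DKO arrays lay well above them. The means were 6.14 ± 0.25 and 4.29 ± 0.11 (SD, n = 3 each), a difference of 1.84 (SE 0.24; limma, adjusted p = 0.00358), with pair differences of 2.02, 1.69 and 1.82. Aldh1l1 passed in all 15 alternative fits in which it could be tested. Its other probe set read an intensity of 2 on all 6 arrays and gave no information.

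Aldh1l2 (NCBI gene 216188, chromosome 10) is the mitochondrial counterpart of Aldh1l1. It read 4.70, 4.39 and 5.17 in DKO and 3.17, 3.17 and 3.91 in wild-type. The genotypes did not overlap, but all wild-type arrays were under the limit of 4, and the gene entered the test through its DKO arrays alone. It was at least 1.69-fold higher in DKO, with the wild-type level set to that limit. It missed the threshold (adjusted p = 0.0559, limma) and passed with the replicate number as a block (adjusted p = 0.00301, limma), where 3 of 29 members passed (10.3%) against a background of 10.7% of genes.

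**Figure D1:**
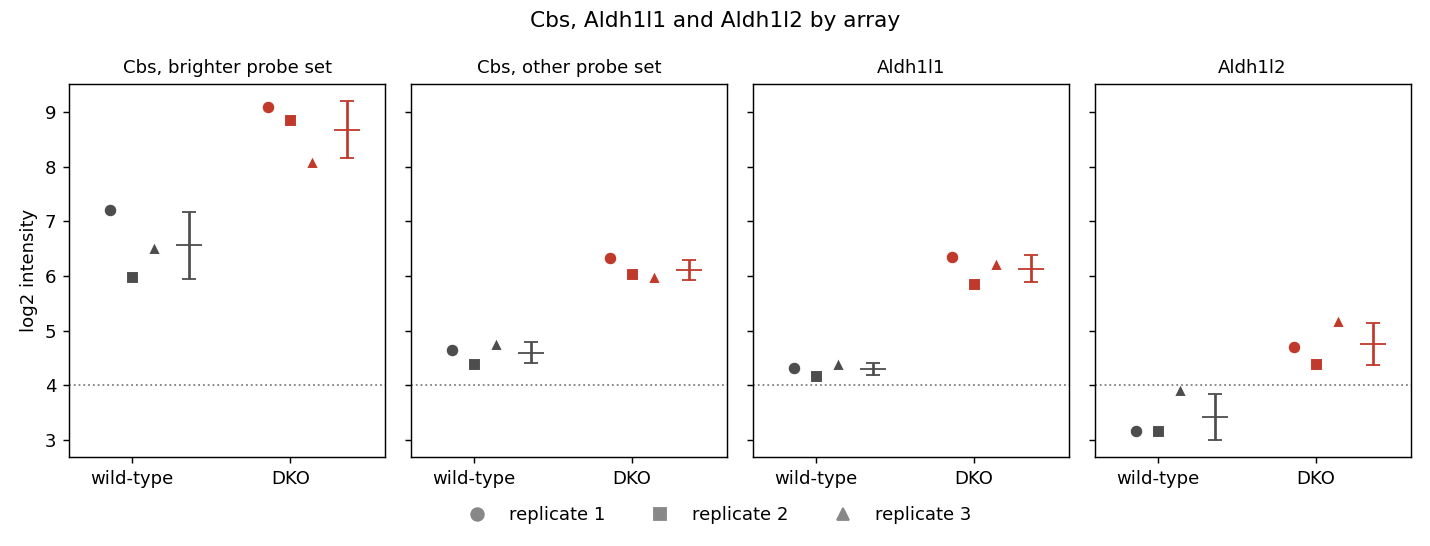
Log2 intensity (y axis) on each array of Cbs (2 probe sets), Aldh1l1 and Aldh1l2 by genotype; marker shape gives the replicate number, the bar and whisker the mean ± SD of 3 arrays, and the dotted line the log2 level of 4. In each panel the 3 DKO arrays lie above the 3 wild-type arrays, and the wild-type arrays of Aldh1l2 lie under the dotted line.

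The other folate enzymes showed no change that passed. Of the 14 tested genes of the folate cycle, Aldh1l1 rose, 0 fell and 13 did not pass, and the median difference was 0.21. Shmt1 and Shmt2, the cytosolic and mitochondrial enzymes that move a carbon from serine to folate, differed by 0.47 (95% interval -0.12 to 1.05) and 0.24 (-0.35 to 0.83). Shmt1 read 10.04, 9.77 and 9.42 in DKO and 9.05, 9.30 and 9.49 in wild-type, so its lowest DKO array was under its highest wild-type array. Shmt2 read 9.29, 9.93 and 9.46 against 9.11, 9.31 and 9.55, with overlap. All 4 probe sets of Shmt2 were higher in DKO (0.18 to 0.48), whereas those of Shmt1 ran from -0.21 to 0.47.

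Mthfd2, the mitochondrial enzyme between methylene- and formyl-tetrahydrofolate, read 10.24, 9.79 and 9.99 in DKO and 9.62, 9.79 and 10.06 in wild-type, a difference of 0.18 (95% interval -0.37 to 0.74). Its cytosolic and mitochondrial partners Mthfd1 and Mthfd1l differed by 0.04 and -0.01. These 3 intervals all lie within a 2-fold change in either direction. Tyms, which makes thymidylate, read 4.70, 5.43 and 4.86 in DKO and 5.17, 5.49 and 5.13 in wild-type, a difference of -0.27 (-0.88 to 0.34). The 3 other single-gene probe sets of Tyms were too dim to test, so its value rests on a dim signal. A further Tyms probe set, assigned to several genes, was left out by the rule.

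Methionine synthase, Mtr, read 7.21, 7.56 and 7.38 in DKO and 6.66, 6.64 and 7.31 in wild-type. DKO replicate 1 lay below wild-type replicate 3, and the difference of 0.51 (95% interval -0.09 to 1.12) did not pass (adjusted p = 0.493, limma). Its reductase Mtrr differed by 0.17. Ggh, which removes the glutamate tail of folates, did not overlap between genotypes (7.17, 7.34 and 7.03 in DKO, 6.82, 6.74 and 6.92 in wild-type), at a difference of 0.35 (-0.15 to 0.86) that did not pass. Fpgs, which adds that tail, differed by -0.03. The folate carriers Slc19a1 and Slc25a32 differed by 0.29 and -0.07. Mthfs was too dim to test on its single-gene probe set, and another, assigned to several genes, was left out by the rule.

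Across the list 4 of 29 members did not overlap between genotypes, all higher in DKO (Cbs, Aldh1l1, Aldh1l2 and Ggh; 13.8%), against 18.9% of all tested genes in either direction and 8.49% higher in DKO. All 3 same-numbered pairs ran one way in 11 members (37.9%), 9 up and 2 down, against 42.9% of genes in either direction. Upward alone these were 31% of members and 21% of genes. Both shares of members were thus under the background in either direction and above that for higher in DKO, and no test was made of these shares. Aldh1l2 counts in both by way of the filter. With all its wild-type arrays under the limit of 4, it could be tested only with every DKO array above them. Of the members, 19 were above 0 (65.5%; 49.7% of all genes), and 5 differed by 0.5 or more. The 95% interval lay within a 2-fold change in either direction for 21 of 29 members (72.4%), against 57.5% of all genes, and beyond Cbs, Aldh1l1 and Aldh1l2 it reached past 2-fold in Shmt1, Mtr, Phgdh, Psph and Cth.

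**Figure D2:**
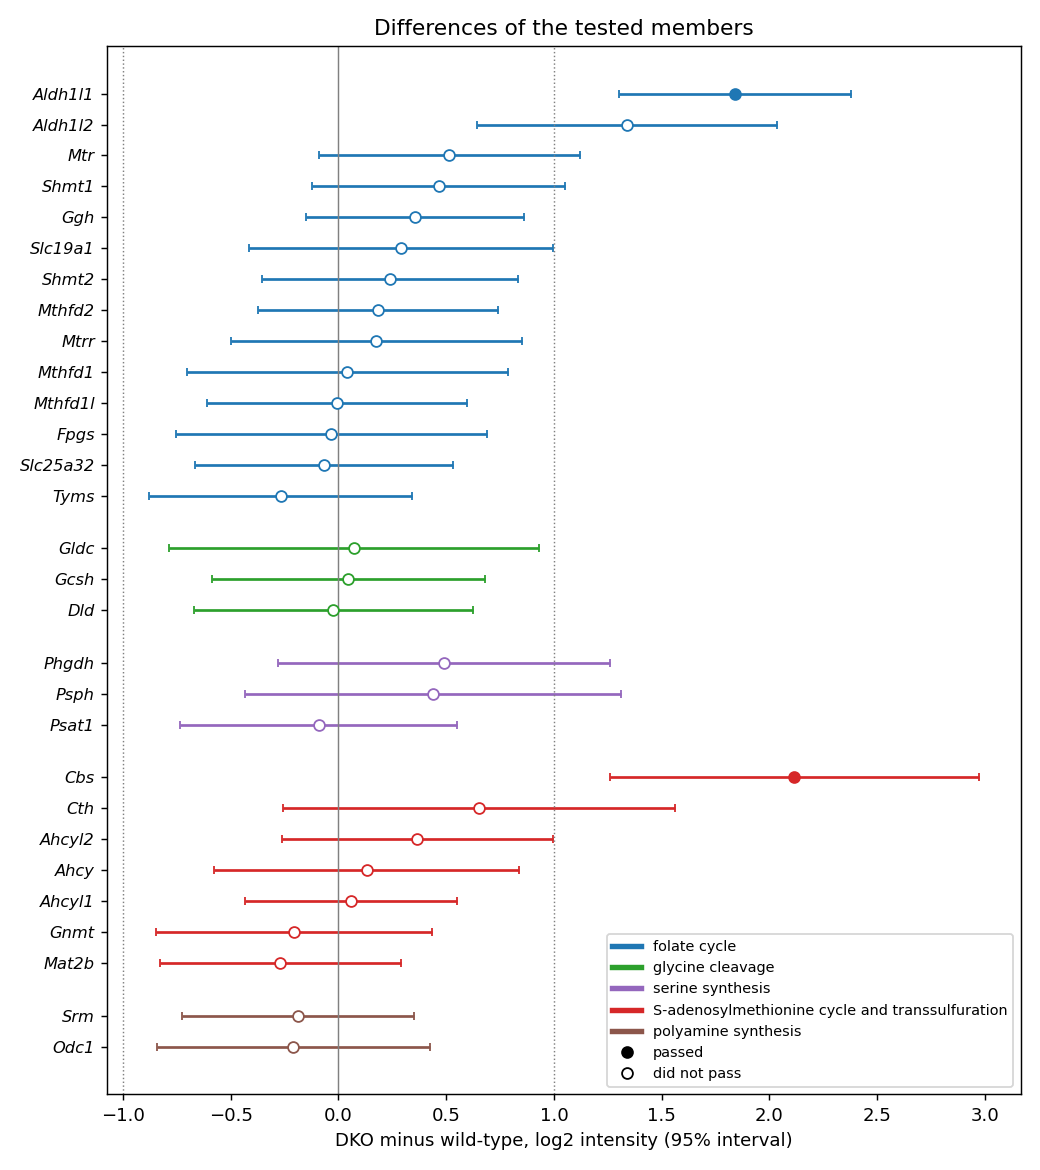
Difference in log2 intensity (x axis, DKO minus wild-type) for each of the 29 tested members, ordered by role and size, with 95% intervals from limma; filled points passed, open points did not, and dotted lines mark a 2-fold change. Cbs and Aldh1l1 alone are filled. Aldh1l2 is drawn at its measured difference, with wild-type under the log2 level of 4.

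Serine synthesis showed no call in either direction. Phgdh, the first enzyme of the route from glycolysis to serine, read 10.83, 10.48 and 9.61 in DKO and 10.14, 9.58 and 9.73 in wild-type. DKO replicates 1 and 2 were the highest arrays, whereas DKO replicate 3 lay among the wild-type arrays. The difference was 0.49 (95% interval -0.28 to 1.26; limma, adjusted p = 0.669), and all 4 Phgdh probe sets were above 0 (0.32 to 0.50). Psph, which completes the route, read 9.37, 9.36 and 10.28 in DKO and 8.60, 9.21 and 9.88 in wild-type, a difference of 0.44 (-0.43 to 1.31). Psat1, the middle step, read 11.06, 11.90 and 11.74 against 11.44, 11.71 and 11.83, a difference of -0.09 (-0.73 to 0.55), and its 2 probe sets disagreed in sign (-0.09 and 0.37).

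The glycine cleavage system splits glycine to feed folate. Gldc, its decarboxylase, read 9.20, 9.70 and 9.87 in DKO and 8.78, 9.53 and 10.25 in wild-type, a difference of 0.07 (95% interval -0.79 to 0.93). Gcsh, its carrier protein, and Dld, which it shares with other dehydrogenases, differed by 0.05 and -0.02. These 3 genes were bright and 0 passed, and all 3 intervals lay within 2-fold. Amt, the fourth component, was not named in the annotation used here.

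Threonine use could not be read. No probe set was assigned to Tdh, and Gcat, which acts after it, is only on 3 probe sets shared with Galr3, so no value is given for either.

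In the S-adenosylmethionine cycle Cbs was the only one of 7 tested genes to pass. Ahcy, which clears S-adenosylhomocysteine, read 11.62, 11.33 and 10.50 in DKO and 10.98, 11.14 and 10.95 in wild-type. Its DKO arrays spanned the wild-type ones, and the difference was 0.13 (95% interval -0.58 to 0.84). The Ahcy relatives Ahcyl1 and Ahcyl2 differed by 0.06 and 0.37. Mat2b, the regulatory subunit of S-adenosylmethionine synthetase, differed by -0.27 (-0.83 to 0.29), and Gnmt, a methyltransferase that uses up excess S-adenosylmethionine, by -0.21 at a level near the limit of 4. Mat2a, the catalytic subunit in most cells, was not named in the annotation. Mat1a, its liver counterpart, and Nnmt, which methylates nicotinamide, were at intensities of 2 to 3 and 5 to 7 and too dim to test.

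Polyamine synthesis also had no call. Odc1, the rate-limiting ornithine decarboxylase, read 11.59, 12.25 and 12.49 in DKO and 12.29, 12.25 and 12.42 in wild-type. DKO replicate 1 was the lowest array and DKO replicate 3 the highest, and the difference was -0.21 (95% interval -0.84 to 0.42). Srm, spermidine synthase, read 10.94, 10.59 and 10.44 against 10.89, 10.74 and 10.91, a difference of -0.19 (-0.72 to 0.35). Sms was only on 3 probe sets shared with Sms-ps, and Amd1 was not named in the annotation.

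Among the neighbouring pathways, 3 genes in the list of choline oxidation and remethylation rose. That list includes the betaine route, which feeds carbons from choline to homocysteine and folate. Of the 71 genes in 9 neighbouring lists, 59 were tested, 3 rose (5.08%), 0 fell, and 12 (20.3%) had an unadjusted p under 0.05. The shares over all tested genes were 1.64% higher in DKO, 4.13% in either direction and 14.7% by unadjusted p. All 3 belong to choline oxidation and remethylation, where 6 of 7 genes were tested, 3 rose and the median difference was 2.47, or 2.17 with dim genes set to their limit. Bhmt, which passes a methyl group from betaine to homocysteine, read 10.45, 10.84 and 10.32 in DKO and 4, 4.95 and 5.55 in wild-type. Its relative Bhmt2 read 7.88, 7.99 and 8.52 against 3.00, 3.32 and 3.91, and Dmgdh, which takes a carbon from dimethylglycine onto folate, 9.19, 8.81 and 8.35 against 2.32, 2.32 and 3.81. The wild-type arrays of Bhmt2 and Dmgdh all lay under the limit, so both could be tested only with every DKO array above them. Both count among the 3 that rose, and in their share, by way of the filter. The adjusted p-value of Bhmt was 0.000151 (limma). Those of Bhmt2 and Dmgdh, 0.000122 and 0.000209 (limma), are for genes that entered the test through DKO alone. In the same list Chdh, Aldh7a1 and Pemt differed by 0.21, -0.03 and -0.37 and did not pass. Whether probes of Bhmt and Bhmt2 read each other's transcripts was not tested.

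The 8 other lists held 0 genes that passed. Of these, 53 genes were tested, and the largest difference of each list was 0.72 for Slc46a1 (the proton-coupled folate carrier), -0.49 for Prps1 (the first step of purine synthesis), 1.31 for Cdo1 (which oxidises cysteine), 0.39 for Mtap (methionine salvage), -0.41 for Oaz2 (a polyamine antizyme), 0.96 for Slc1a4 (a serine and neutral amino acid carrier), 0.63 for Sptlc2 (a subunit that joins serine to a fatty acid) and 1.39 for Nupr1 (a stress-induced nuclear protein). Cdo1 had an adjusted p of 0.0744 (limma; 0.00656 with the block). It read 6.67, 5.52 and 5.95 in DKO and 4.86, 4.46 and 4.91 in wild-type, with no overlap. Of the 59 tested genes of all lists, 9 were higher in DKO without overlap and 4 were lower (22%), against 18.9% of all tested genes. With the replicate number as a block 7 of the 59 passed (11.9%), against 10.7% of genes. Cdo1, Slc1a4, Nupr1 and Gclm (which fell by 0.85 on the log2 scale) joined Bhmt, Bhmt2 and Dmgdh. Gclm (adjusted p = 0.159 by limma, and 0.0323 with the block) is the regulatory subunit of the enzyme that starts glutathione synthesis from cysteine. All 8 genes of purine synthesis, which draws on folate carbon, differed by -0.49 to 0.23.

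**Figure D3:**
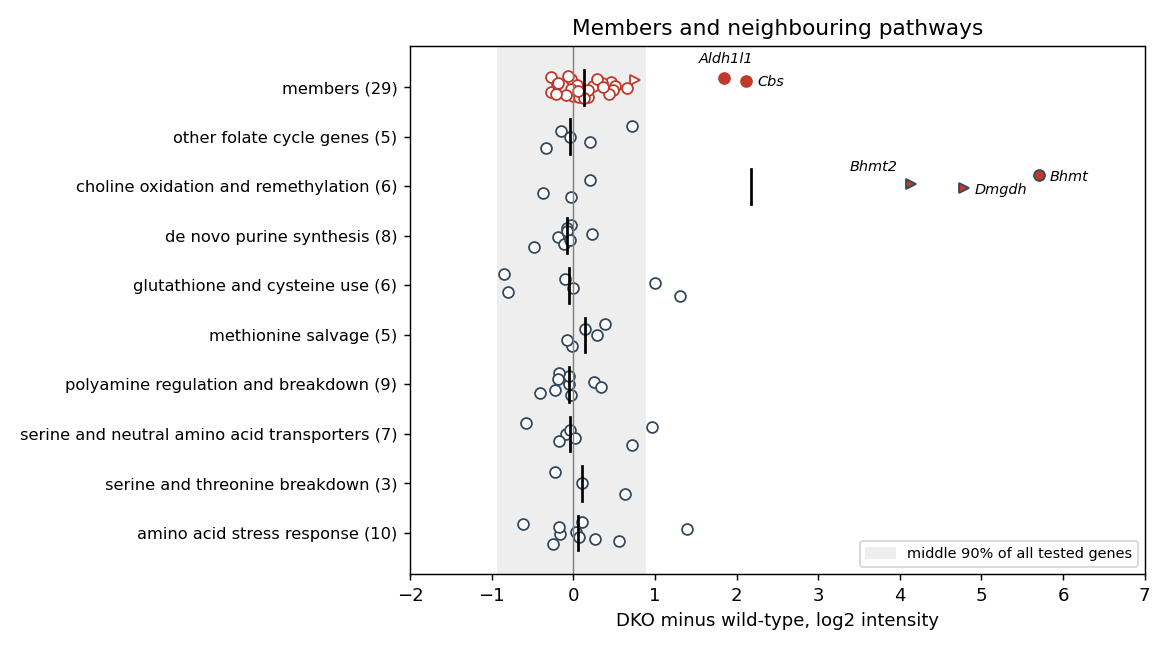
Difference in log2 intensity (x axis, DKO minus wild-type) for the 29 tested members and the 59 tested genes of 9 neighbouring lists; each point is a gene, filled points passed, triangles (Aldh1l2, Bhmt2 and Dmgdh) are lower limits because wild-type lay under the log2 level of 4, vertical bars are medians and the grey band holds the middle 90% of all tested genes. Bhmt lies at 5.70, the limits of Bhmt2 and Dmgdh at 4.13 and 4.79, and Cbs and Aldh1l1 at 2.12 and 1.84. The limits leave out sampling error.

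Some members moved with the arrays of replicate 3. In 12 of 29 members (41.4%) both arrays of replicate 3 lay on one side of the other 4, 9 above and 3 below, against 27.3% of all tested genes. Cth and Psph, which were also higher in DKO in all 3 same-numbered pairs, and Gldc, which was not, had the largest such gaps. In Cth, Psph and Gldc replicate 3 lay above the other arrays by 1.04, 0.95 and 0.76 on average. In the list of the amino acid stress response, which ATF4 drives when amino acids run short, 5 of 10 genes showed it, all above. Chac1, which degrades glutathione, averaged 2.98 above the rest there, and read 4.75, 4.75 and 7.29 in DKO and 5.25, 4 and 8.04 in wild-type. Trib3 and Ddit4, both stress-induced regulators, averaged 1.86 and 1.08 above. The part of hybridisation or culture in these gaps was not tested. Cbs, Aldh1l1 and Aldh1l2 could not have both arrays of replicate 3 on one side, because every DKO array lay above every wild-type array. Replicate 3 minus the other arrays averaged 0.68 for Aldh1l2, 0.13 for Aldh1l1 and -0.49 for the brighter Cbs probe set. Within replicates 1 and 2 alone Cbs and Aldh1l1 differed by 2.39 and 1.85.

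**Figure D4:**
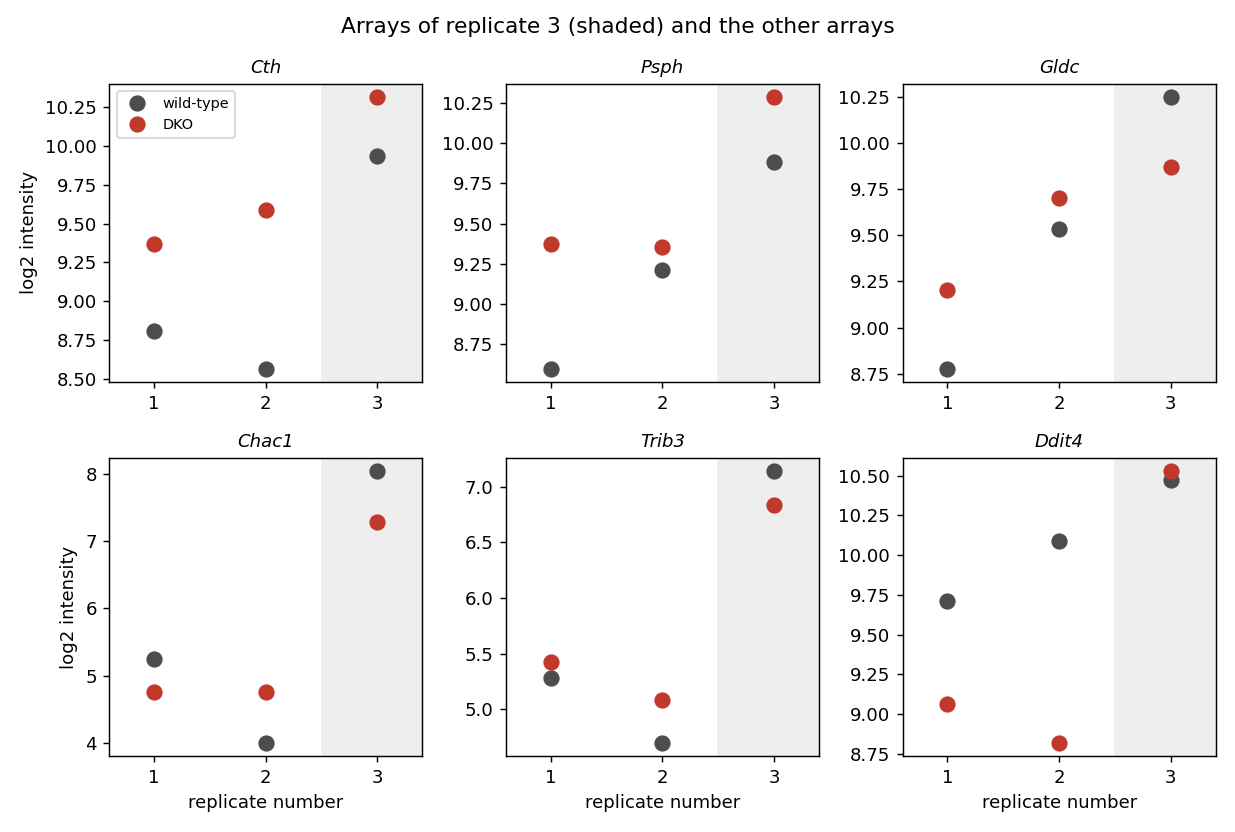
Log2 intensity (y axis, a range of its own in each panel) by replicate number for the 3 members and the 3 amino acid stress genes with the largest gap between replicate 3 (shaded) and the other arrays. In each panel both shaded arrays lie above the other 4, whatever the genotype.

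Markers of extraembryonic endoderm differed between arrays and are set here beside Cbs and Aldh1l1. Of 12 listed markers 8 were tested, 6 of them above 0, and 0 passed on their brightest probe set. Their summed intensity was 3770, 3510 and 5688 in DKO and 3946, 3271 and 1028 in wild-type. Wild-type replicate 3 was thus low, and the other wild-type arrays lay within or near the DKO range. In such sums the brightest genes count most. Afp, Ttr, Apoa1 and Apob, which define the mature visceral endoderm, were too dim to test. Gata6, Foxa2 and Hnf4a were higher in DKO without overlap, 3 of 8 (37.5%) against 8.49% of all tested genes, and 0 were lower without overlap. The other tested Gata6 probe set overlapped (5.46, 4.86 and 5.83 in DKO, 5.04, 5.29 and 4.25 in wild-type). With replicates 1 and 2 alone Gata6, Foxa2 and Hnf4a differed by 0.33, 0.61 and 1.38 (adjusted p = 0.752, 0.587 and 0.0869, limma). An unadjusted p under 0.05 (limma) was found for 4 of 8 (50%), against 14.7% of genes, with Foxa2 and Hnf4a higher and Dab2 and Amn lower. The 8 differences ran from -1.45 to 2.61, with a median of 1.00. The highest was that of Hnf4a, 2.61 (adjusted p = 0.134, limma), and 3.10 on its other tested probe set (adjusted p = 0.0459, limma). The endoderm genes Dab2 and Amn lay below 0, at -1.45 and -0.75 (adjusted p = 0.305 and 0.347, limma), and Dab2 differed by -2.44 with replicates 1 and 2 alone (adjusted p = 0.00579, limma). The wild-type array lowest in these markers had the highest Aldh1l1 (4.39) and the middle Cbs (6.51) of the 3. Without that array the differences of Cbs and Aldh1l1 were 2.09 and 1.89 (adjusted p = 0.0356 and 0.00858, limma). In bulk RNA a change in the share of a cell type and a change in RNA per cell cannot be told apart. Of 8 trophoblast markers 5 were tested, 3 above 0 and 2 below, and 1 passed, Cdx2, which also marks the posterior embryo (difference 4.09). Eomes was higher in DKO without overlap on both of its tested probe sets (1.24 and 1.44) and did not pass (limma, adjusted p = 0.0787 and 0.118). Tfap2c differed by -0.89 on its brightest probe set and did not pass, while another of its probe sets passed as lower in DKO (-1.42; limma, adjusted p = 0.0141). Of the 5 tested, 2 were higher in DKO and 1 was lower without overlap (60%). The summed trophoblast intensity was 5087 to 7915 in DKO and 4329 to 7804 in wild-type. Bright genes lead this sum, and Krt18 alone read 340 to 2411 in DKO and 617 to 2371 in wild-type. Of 6 neural markers 5 were tested, all 5 below 0, and 1 passed, Pax6 (-3.47), with sums of 111 to 350 in DKO and 391 to 630 in wild-type. Pax6, Nes and Map2 were lower in DKO without overlap, 3 of 5 (60%), against 18.9% of all tested genes in either direction. The same 3 had an unadjusted p under 0.05 (60%, against 14.7% of genes, limma). Of 8 fibroblast markers 3 were tested and 0 passed, with sums of 129 to 237 and 188 to 408. Of these 3, only Col1a1 (33.3%) was without overlap, lower in DKO (-1.34, adjusted p = 0.0805, limma). It overlapped on its other tested probe set (-0.18). The part of all these markers in the results was not tested.

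**Figure D5:**
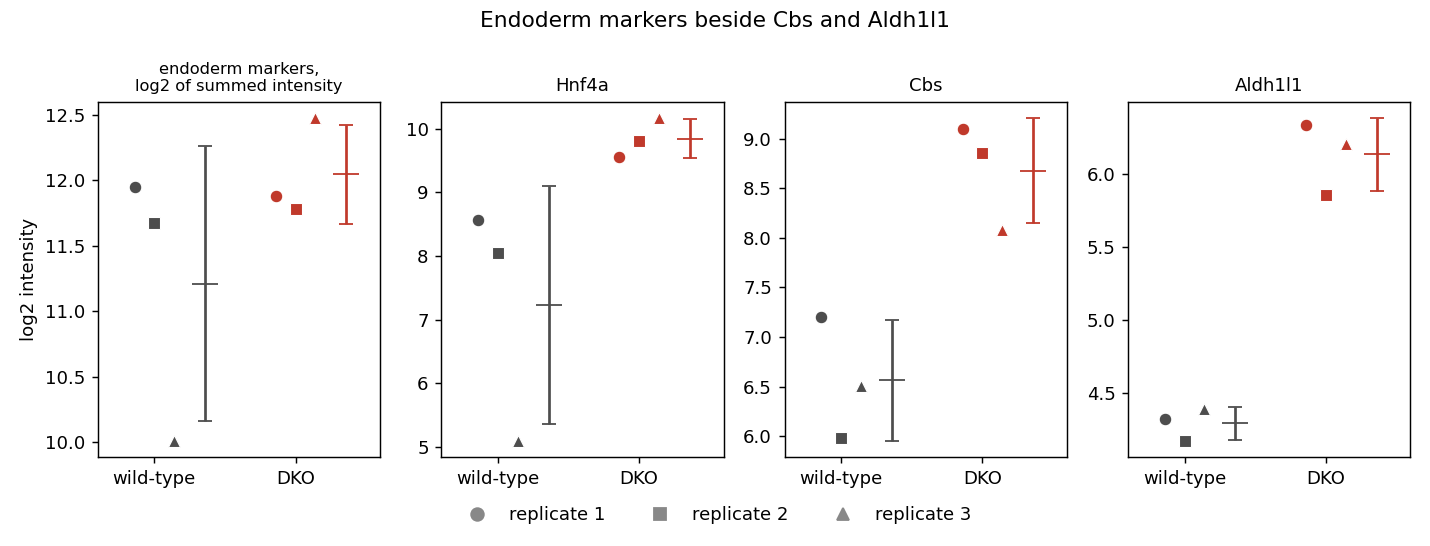
Log2 intensity (y axis, a range of its own in each panel) by genotype of the summed endoderm markers, Hnf4a, Cbs and Aldh1l1; marker shape gives the replicate number and the bar and whisker the mean ± SD of 3 arrays. Wild-type replicate 3 (triangle) is the lowest array for the endoderm markers and not for Cbs or Aldh1l1.

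For 3 control transcripts the log2 ratio of 3′ to 5′ signal, a sign of RNA integrity, was 2.32, 2.44 and 1.83 on the DKO arrays and 2.30, 2.00 and 1.64 on the wild-type arrays. The widest gap between same-numbered arrays was that of replicate 2. In that pair the brighter Cbs probe set differed most of the 3 pairs (2.88), whereas the second Cbs probe set differed most in pair 1 (1.68, 1.65 and 1.22) and Aldh1l1 differed least in pair 2. The part of this ratio in the differences was not tested.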

How the data were processed

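Total RNA (25 ng per sample) from 3 DKO and 3 wild-type samples was amplified, biotin-labelled and put on 1 array each. For every probe set the authors deposited a whole-number intensity. Per the submitters' processing notes, GCOS, R 2.8.0, GCRMA 2.14.1 and limma 2.16.5 were used, with no order of steps. No source states the scale, and the intensities were read here as linear and turned into log2. Whole numbers make low values coarse. A genome build was not found in the labels or the file.

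Probe sets entered the test at a log2 intensity of 4 or more (16 on the linear scale) on 3 or more of the 6 arrays, array controls aside. The genotypes were compared with limma 3.58.1 (R 4.3.3; lmFit, eBayes, two-sided), with Benjamini-Hochberg adjustment over all 20841 such probe sets and a threshold of 0.05. The procedure was tested on simulated data. A gene was read on the brightest of its tested single-gene probe sets. Where a genotype lay under 4 on all 3 arrays, a fold is a limit, for which each of its arrays counts as 4. Such a limit leaves out sampling error. The number of arrays limits the precision.

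The members, lists, tests and the replicate 3 batch were chosen with earlier results of these data known. Given on every array are members that passed, with or without the replicate block, and members without overlap and a difference of at least 0.5. So are those of a fixed set of 15 members that could be tested, and neighbouring genes that passed. Where no gene of a neighbouring list passed, the largest difference was given, with every array for Cdo1 alone. Outside this rule, Cth, Mtr, Ggh, Chac1, Trib3, Ddit4, Gclm, Dab2, Amn, Gata6, Foxa2, Eomes, Tfap2c, Hnf4a, Chdh, Aldh7a1 and Pemt were given after their values were seen. So were Krt18, Nes, Map2 and Col1a1.

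The sample titles use replicate numbers 1 to 3 in both genotypes. To check whether they pair samples, each array's deviations from its genotype's mean were correlated: r was 0.427, 0.354 and 0.595 for arrays of 1 number and -0.488 to 0.113 for the others, so they were taken as pairs. An array's deviation is fixed by those of the other arrays of its genotype, so these r values are not independent. What arrays of 1 number share was not tested. The replicate number as a block, replicate 3 as a batch, other filters, scalings and a pseudocount of 16, and leaving out each array were alternatives.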

Additional observations from a re-analysis of the deposited data

How the results depend on the processing

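Over all tested probe sets 675 passed; 1995 did with the replicate block, 1117 with replicate 3 as a batch, 440 with replicates 1 and 2 alone, 373 with the stricter filter (log2 of at least 6), and 290 to 604 with one array left out. Of the members, 2 passed; 1 did without a filter (Aldh1l1), 1 with the stricter filter (Cbs, as Aldh1l1 and Aldh1l2 were then not tested), and 1 to 3 with one array left out (Cbs lost without DKO replicate 1, DKO replicate 2 or wild-type replicate 2, Aldh1l2 gained without wild-type replicate 3). Of the neighbouring genes 3 passed, and 7 with the replicate block. Aldh1l2 passed in 5 of 15 alternatives (the replicate block, replicate 3 as a batch, quantile normalization, the mean of all probe sets and without wild-type replicate 3), with adjusted p from 0.00301 to 0.231 (limma) over the 15. Among the members the replicate block changed no other call. Psat1 turned to 0.14 as the mean of its probe sets. With one array left out, Psat1 ran from -0.26 to 0.16, Ahcy from -0.11 to 0.46, Odc1 from -0.40 to 0.049 and Gldc from -0.30 to 0.43, none past the threshold. Where a call changed and no value shows why, the cause was not tested. Dim genes limit what can be read: 3 members with a probe set of their own were too dim to test, and the low wild-type levels of Aldh1l1 and Aldh1l2 make their folds sensitive to the pseudocount (1.28 and 0.69 on the log2 scale with 16 added).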
